A study of Homo sapiens with 12 samples.

Results

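Small nucleolar RNAs guide the chemical modification of ribosomal and spliceosomal RNA, and in human cells most of them are cut out of the introns of host genes. Some hosts make proteins. The genes described here are the noncoding hosts, whose spliced exons form RNAs without a long open reading frame, and many of their transcripts start with a run of pyrimidines, as do the mRNAs of ribosomal proteins (5′ terminal oligopyrimidine, or TOP, mRNAs). Several of the spliced RNAs, GAS5 among them, are known to be removed by nonsense-mediated decay, a surveillance pathway that acts during translation, so their level depends on transcription and on decay. Members were the genes named SNHG plus a number, together with GAS5, ZFAS1, DANCR, EPB41L4A-AS1, CYTOR, DLEU2 and MIR17HG, that had at least 10 counts in at least 3 libraries. There were 32 of them, selected on their counts and names, among the 32010 genes of the table. One further gene with a matching name, SNHG14, did not reach the minimum, with 0 to 3.6 counts per library. The members just inside it were SNHG22, with 9 libraries at the minimum and a median of 15 counts, and SNHG28, with 10 libraries and a median of 13.5 counts. The set was proposed, and SNHG3 chosen for detail, with earlier results of these libraries known, the fall of SNHG3 in siTAF5 against siNT among them.

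The RNA-seq libraries, 3 in each of 4 groups, were made from polyadenylated RNA of HEK293 Flp-In cells. This human line came from embryonic kidney and carries a genomic site prepared to accept a transgene. The siTAF5+TAF5-DE8 and siTAF5+TAF5-FL groups received an siRNA against TAF5, which encodes a scaffold subunit of the general transcription factor TFIID, and then doxycycline to induce an siRNA-resistant TAF5 lacking exon 8 (DE8) or of full length (FL). The siTAF5 group received the siRNA without a TAF5 transgene being named, and the siNT group was labelled only siNT, taken here as the non-targeting control. The labels give siRNA and doxycycline for all 12 samples, with doxycycline added after 24 h and kept for 48 h. A single siRNA against TAF5 was used, different doxycycline doses were given for FL and DE8, and the labels do not say whether the replicates were separate cultures, so p-values measure only the spread between these libraries.

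Library totals ran from 41.8 M to 62.5 M estimated counts. Levels are given as CPM, counts scaled to a library size of 1 M, which compare 1 gene between libraries and not genes with each other. In bulk RNA, fewer cells with a transcript and less of it per cell cannot be told apart. TAF5 averaged 88.0 CPM in siTAF5+TAF5-DE8, 105 in siTAF5+TAF5-FL, 6.72 in siTAF5 and 39.96 in siNT, so it was lowest in siTAF5. Transgene reads cannot be told apart from those of the endogenous gene. All 8 HEK293 markers reached 1 CPM in some library. Among the markers of other cells, PTPRC and CD3E (blood), COL1A2, DCN and LUM (fibroblasts) and all 4 hepatocyte genes stayed under 1 CPM. CD68, also on the blood list, was at 7.715 to 8.06 CPM in DE8, 7.61 to 9.18 in FL, 5.95 to 7.196 in siTAF5 and 9.16 to 9.97 in siNT, and was 1.46-fold lower in siTAF5 than in siNT (adjusted p = 6.77e-06, edgeR). COL1A1 was at 6.635 to 8.77 CPM in the 9 libraries with TAF5 siRNA, against 13.6 to 13.9 CPM in siNT. The part of the differences in CD68 and COL1A1 in the results was not tested.

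The name "small nucleolar RNA host" was checked against RefSeq positions. In 28 members at least 1 small nucleolar or small Cajal body RNA gene lay inside the gene's bounds, 64 genes in all: 37 box C/D (SNORD), 23 box H/ACA (SNORA) and 4 Cajal body RNAs (SCARNA). None lay inside CYTOR, DLEU2, MIR17HG or SNHG28. DLEU2 holds MIR15A, MIR16-1 and MIR3613, and MIR17HG holds MIR17, MIR18A, MIR19A, MIR20A, MIR19B1 and MIR92A1, so these are hosts of microRNAs. SNHG3 holds SNORA73A and SNORA73B. Its row (ENSG00000242125) lies on the plus strand at chr1:28505980-28510892 in hg38.

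The sequence around the start is shown for the 6 members with the largest falls in siTAF5 against siNT that have a RefSeq promoter entry, followed by SNHG17 and SNHG11, which did not fall. Each stretch holds the 40 bases before the start that RefSeq (GRCh38.p14) annotates and the 30 bases from it on, read 5′ to 3′ on the gene's strand. Capitals mark the longest run of C and T that touches the window from 5 bases before the start to base 6 from it on.
SNHG26: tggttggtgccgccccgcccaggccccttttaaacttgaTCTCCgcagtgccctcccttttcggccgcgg
SNHG3: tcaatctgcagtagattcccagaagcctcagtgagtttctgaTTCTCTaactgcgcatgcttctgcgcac
SNHG32: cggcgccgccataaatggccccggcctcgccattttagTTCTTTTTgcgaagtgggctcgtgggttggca
SNHG4: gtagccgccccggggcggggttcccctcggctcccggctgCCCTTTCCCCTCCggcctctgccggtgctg
SNHG29: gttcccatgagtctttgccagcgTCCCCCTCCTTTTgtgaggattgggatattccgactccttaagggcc
DANCR: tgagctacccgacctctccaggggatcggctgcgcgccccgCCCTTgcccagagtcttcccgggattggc
SNHG17: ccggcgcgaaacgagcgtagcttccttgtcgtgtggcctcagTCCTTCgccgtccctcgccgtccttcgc
SNHG11: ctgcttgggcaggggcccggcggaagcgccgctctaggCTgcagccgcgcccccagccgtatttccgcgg
They lie on the plus strand at chr7:22854200-22854269 (SNHG26), chr1:28505903-28505972 (SNHG3), chr6:31834876-31834945 (SNHG32), chr5:139274061-139274130 (SNHG4), chr17:16438947-16439016 (SNHG29), chr4:52712354-52712423 (DANCR) and chr20:38446614-38446683 (SNHG11), and on the minus strand at chr20:38435299-38435368 (SNHG17). The longest runs shown are the 13 bases of SNHG4 and of SNHG29, though that of SNHG29 ends 5 bases before the annotated start, and SNHG3 and SNHG17 have 6 bases each at the same place. For SNHG3 the RefSeq start is also where the table's RCC1 gene begins, and the stretch shown ends before the table's SNHG3 gene begins, so its run lies outside the measured SNHG3 gene.

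Over the 28 members with a promoter entry (not SNHG15, SNHG25, SNHG6 or SNHG9), 17 had such a run of at least 6 bases (60.7%), against 22.8% of 27305 promoters in the same table. Those 27305 promoters were not limited to genes detected in these libraries, whereas the members were. TATA stood between 40 and 16 bases before the start in 7 members (25%), against 6.52% of all promoters. Searched on both strands of the 300-base window, GGGCGG was found in 71.4% of members and 44.6% of all promoters, CCAAT in 35.7% of each, TATAAA in 17.9% and 12%, and CACGTG in 10.7% and 7.43%. A match in letters is not a measured site, and annotated starts can lie some bases from the true one.

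SNHG3 had 17.6, 19.4 and 19.96 CPM in the siTAF5+TAF5-DE8 libraries, 40.4, 39.9 and 40.6 CPM in siTAF5+TAF5-FL, 18.7, 21.6 and 19.97 CPM in siTAF5, and 65.8, 65.5 and 65.3 CPM in siNT. The siNT libraries were above all others and the FL libraries above all DE8 and siTAF5 libraries, while the DE8 and siTAF5 libraries overlapped. Relative to the siNT mean, SNHG3 stood at 28.96% in DE8, 61.5% in FL and 30.65% in siTAF5. SNHG3 was chosen by its level in siTAF5 against siNT, so the differences that use these libraries are given without a test: log2 differences of -1.70 for siTAF5 over siNT (a 3.26-fold lower level), 1.00 for FL over siTAF5, -0.09 for DE8 over siTAF5, -0.70 for FL over siNT and -1.79 for DE8 over siNT.

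Earlier results of these data were known when SNHG3 was chosen. The comparison of DE8 with FL uses neither siTAF5 nor siNT libraries for its means, though the fit estimated the spread from all 12 libraries. There SNHG3 averaged 18.98 ± 1.24 CPM in siTAF5+TAF5-DE8 and 40.3 ± 0.340 CPM in siTAF5+TAF5-FL (SD, n = 3 each), 2.13-fold lower in DE8 (log2 difference -1.09, SE 0.05, adjusted p = 2.61e-12, edgeR quasi-likelihood test with Benjamini-Hochberg adjustment over 19424 genes). By log2 difference it ranked 137 from the lowest of the 19424 genes. TAF5 itself was lower in DE8 than in FL (88.0 against 105 CPM, log2 difference -0.26, adjusted p = 2.12e-06), and the doxycycline dose differed, so the missing exon, the dose and the level of TAF5 cannot be told apart in this comparison.

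**Figure D1:**
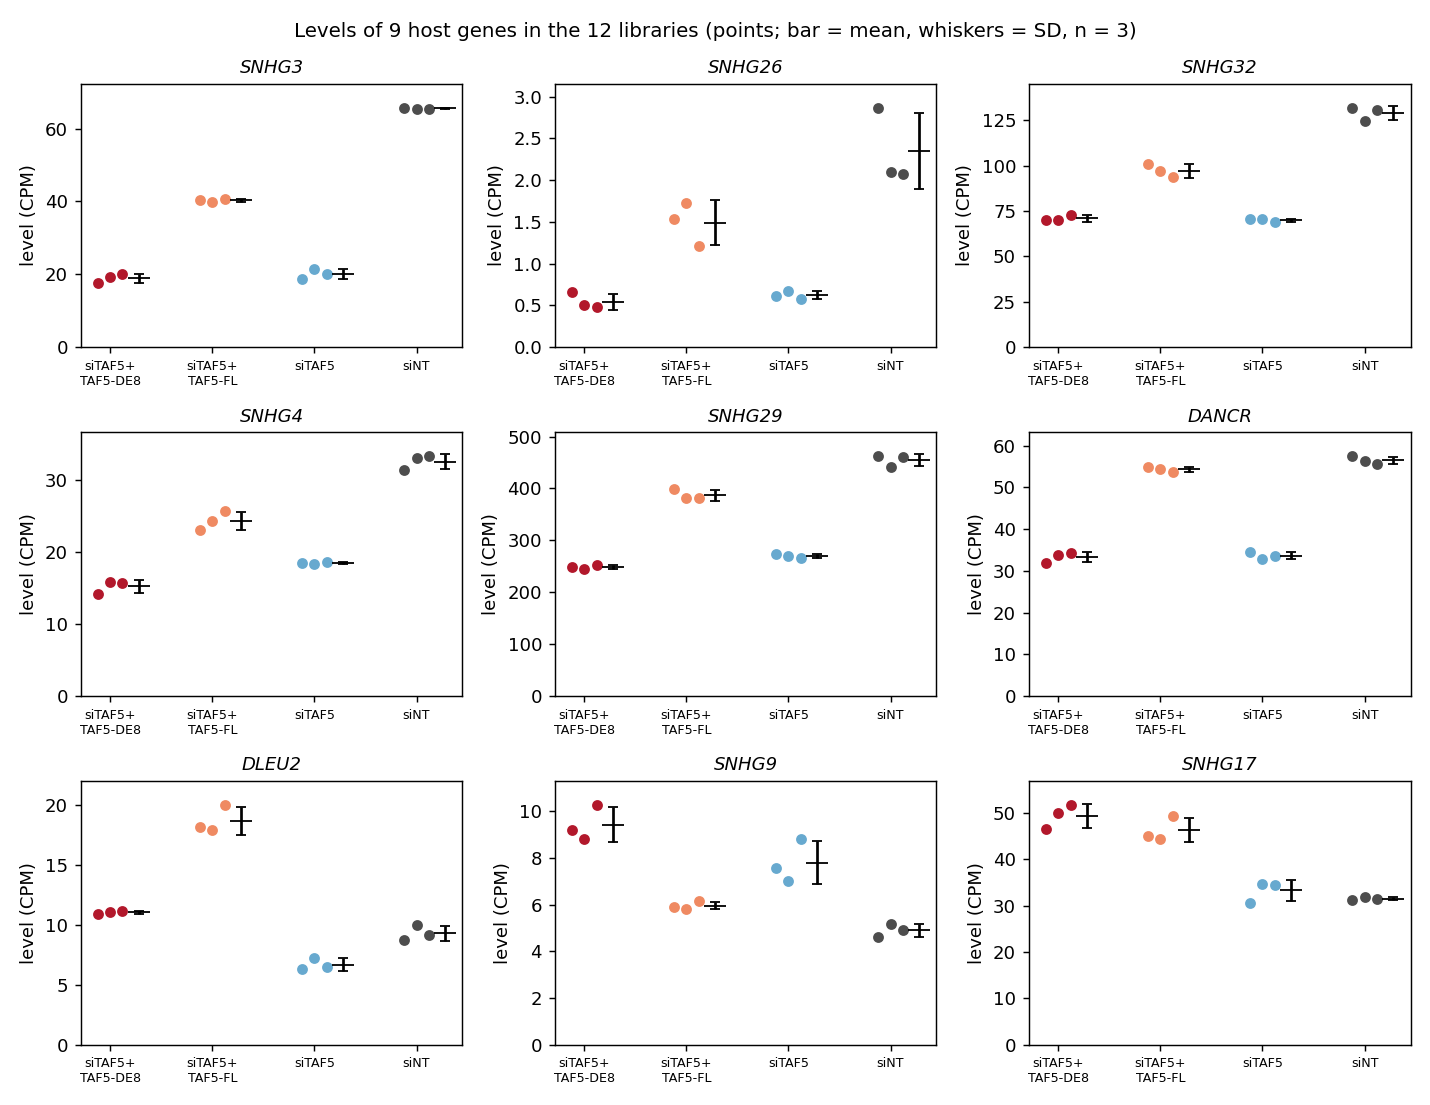
Level (CPM, y axis from 0) of 9 host genes in each library (points) of the 4 groups, with the mean as a bar and the SD as whiskers (n = 3). SNHG3 lies at 17.6 to 19.96 CPM in DE8, 39.9 to 40.6 in FL, 18.7 to 21.6 in siTAF5 and 65.3 to 65.8 in siNT, whereas DLEU2 is highest in FL and SNHG9 is highest in DE8.

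SNHG3 lies within the bounds of RCC1 on the same strand (chr1:28505943-28539300). RCC1 encodes a chromatin-bound exchange factor for the GTPase Ran, and reads may have been split between the genes. The estimate for SNHG3 was not a whole number (tolerance 0.02) in 11 of 12 libraries. RCC1 averaged 172.5 CPM in DE8, 187 in FL, 154 in siTAF5 and 168 in siNT. It was 1.09-fold lower in DE8 than in FL (adjusted p = 0.00101, edgeR) and 1.09-fold lower in siTAF5 than in siNT (adjusted p = 0.000556, edgeR), the direction of SNHG3 in both. In FL against siNT it was 1.12-fold higher (adjusted p = 2.25e-05, edgeR), where SNHG3 was lower. The sum of SNHG3 and RCC1 was 191.5 ± 1.21 CPM in DE8, 228 ± 5.88 in FL, 174 ± 2.01 in siTAF5 and 233 ± 1.99 in siNT (SD, n = 3 each). SNHG3 made up 9.25 to 10.4% of that sum in DE8 libraries, 17.5 to 18.1% in FL, 10.6 to 12.5% in siTAF5 and 27.75 to 28.3% in siNT.

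The other genes within 150 kb of SNHG3 moved less or the other way. PHACTR4, upstream, averaged 78.6 CPM in DE8, 74.0 in FL, 78.1 in siTAF5 and 76.2 in siNT. TRNAU1AP, which takes part in selenocysteine incorporation, rose in siTAF5 against siNT (20.8 against 16.8 CPM, adjusted p = 4.78e-05, edgeR). TAF12, which encodes another TFIID subunit, had 34.15 CPM in DE8, 20.97 in FL, 32.2 in siTAF5 and 17.1 in siNT on average. It rose in DE8 against FL (log2 difference 0.70, SE 0.04, adjusted p = 1.74e-10) and in siTAF5 against siNT (0.92, SE 0.04, adjusted p = 1.57e-12), the opposite direction to SNHG3. TAF12-DT, the divergent transcript of TAF12, stayed under 1 CPM in all libraries. On those few reads it rose in siTAF5 against siNT (log2 difference 1.15, SE 0.34, adjusted p = 0.00742, edgeR). It was not called in DE8 against FL (0.45, SE 0.32). SNHG12, a host gene on the other strand that lies between TRNAU1AP and TAF12, averaged 10.96 CPM in DE8, 11.8 in FL, 10.25 in siTAF5 and 12.1 in siNT, and fell in siTAF5 against siNT (log2 difference -0.24, adjusted p = 0.00205, edgeR). The row for SNORA73B, inside SNHG3, averaged 0.119, 0.208, 0.0894 and 0.138 CPM in the same order, too few reads to compare.

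**Figure D2:**
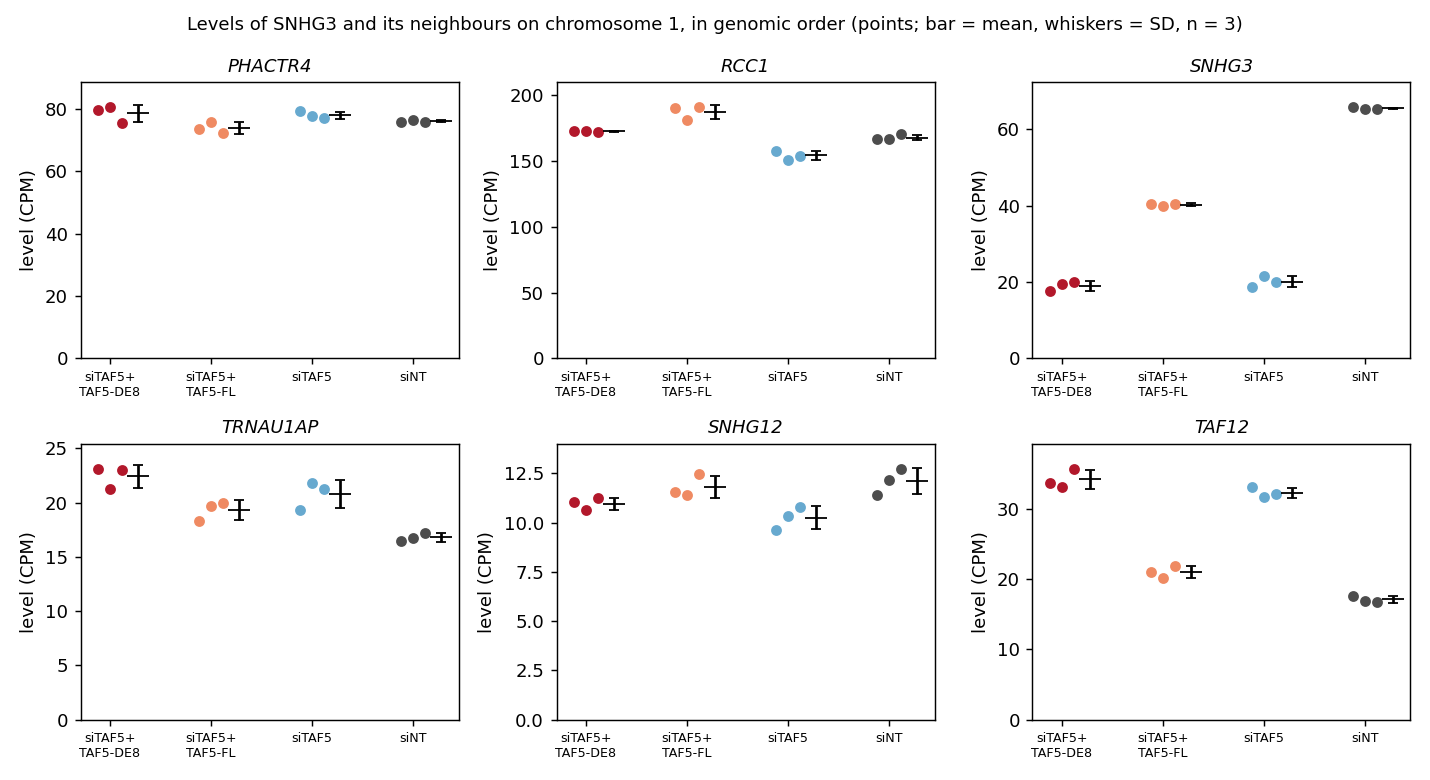
Level (CPM, y axis from 0) of SNHG3 and 5 neighbouring genes in each library (points), with mean (bar) and SD (whiskers, n = 3). SNHG3 and TAF12 move in opposite directions, and PHACTR4 stays between 74.0 and 78.6 CPM on average in all 4 groups.

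After TAF5 knockdown most of the host genes were lower. In siTAF5 against siNT, 22 of the 32 members fell and 2 rose (SNHG9 and SNHG11), with 8 not called. Of all genes tested, 25% fell and 24.7% rose, 49.7% in all. The median log2 difference of the members was -0.32, against 0.00 over all genes. For 23 members no siTAF5 library overlapped a siNT library, as for 57.3% of all genes. The list was proposed with earlier results of these data in view, so this share describes the members and is no independent test of them.

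SNHG26, host of SNORD93, had the largest fall. It had 0.617, 0.669 and 0.579 CPM in siTAF5 libraries, against 2.87, 2.10 and 2.07 CPM in siNT libraries (log2 difference -1.91, SE 0.19, adjusted p = 5.52e-08). The groups did not overlap, but SNHG26 rests on few reads, a median of 46 counts per library. SNHG32, host of SNORD48 and SNORD52, had 70.3, 70.5 and 69.0 CPM in siTAF5, against 132, 125 and 130.3 CPM in siNT (log2 difference -0.88, SE 0.03, adjusted p = 3.21e-14). SNHG4, whose hosted RNAs are SNORA74A and SNORA74D, fell to 18.5 ± 0.115 CPM in siTAF5, against 32.6 ± 1.01 CPM in siNT (SD, n = 3 each).

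SNHG29, host of SNORD49A, SNORD49B and SNORD65, had 273, 271 and 266 CPM in siTAF5 libraries, against 462, 442 and 461 CPM in siNT libraries (log2 difference -0.75, SE 0.03, adjusted p = 1.76e-14). DANCR, host of SNORA26 and known as a noncoding RNA that opposes differentiation, fell by 1.68-fold, with 34.5, 32.8 and 33.6 CPM in siTAF5 and 57.4, 56.4 and 55.7 CPM in siNT. SNHG6, SNHG16, SNHG7 and SNHG8 fell by 1.51- to 1.63-fold. GAS5, host of 10 box C/D RNAs and known to rise in growth arrest, fell by 1.09-fold, to 129 ± 2.15 CPM in siTAF5 against 139.8 ± 3.86 CPM in siNT (SD, n = 3 each, adjusted p = 0.00194, edgeR). SNHG1, host of 8 box C/D RNAs, was 1.13-fold lower.

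SNHG9, host of SNORA78, and SNHG11, host of SNORA60 and SNORA71E, went the other way. SNHG9 had 7.58, 7.00 and 8.82 CPM in siTAF5, against 4.62, 5.16 and 4.92 CPM in siNT (log2 difference 0.67, SE 0.09, adjusted p = 1.93e-06). SNHG11 had 10.5, 11.1 and 10.98 CPM in siTAF5, against 6.90, 7.14 and 6.99 CPM in siNT (log2 difference 0.63, SE 0.06, adjusted p = 2.38e-08). No siTAF5 library overlapped a siNT library for either gene. The 8 members not called were CYTOR, SNHG15, SNHG17, SNHG20, SNHG22, SNHG25, SNHG28 and SNHG31. Of these, SNHG22, SNHG25, SNHG28 and SNHG31 averaged under 1 CPM in both groups, and their SEs of 0.22 to 0.38 on the log2 scale leave changes of a size seen in other members undetectable at this depth.

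**Figure D3:**
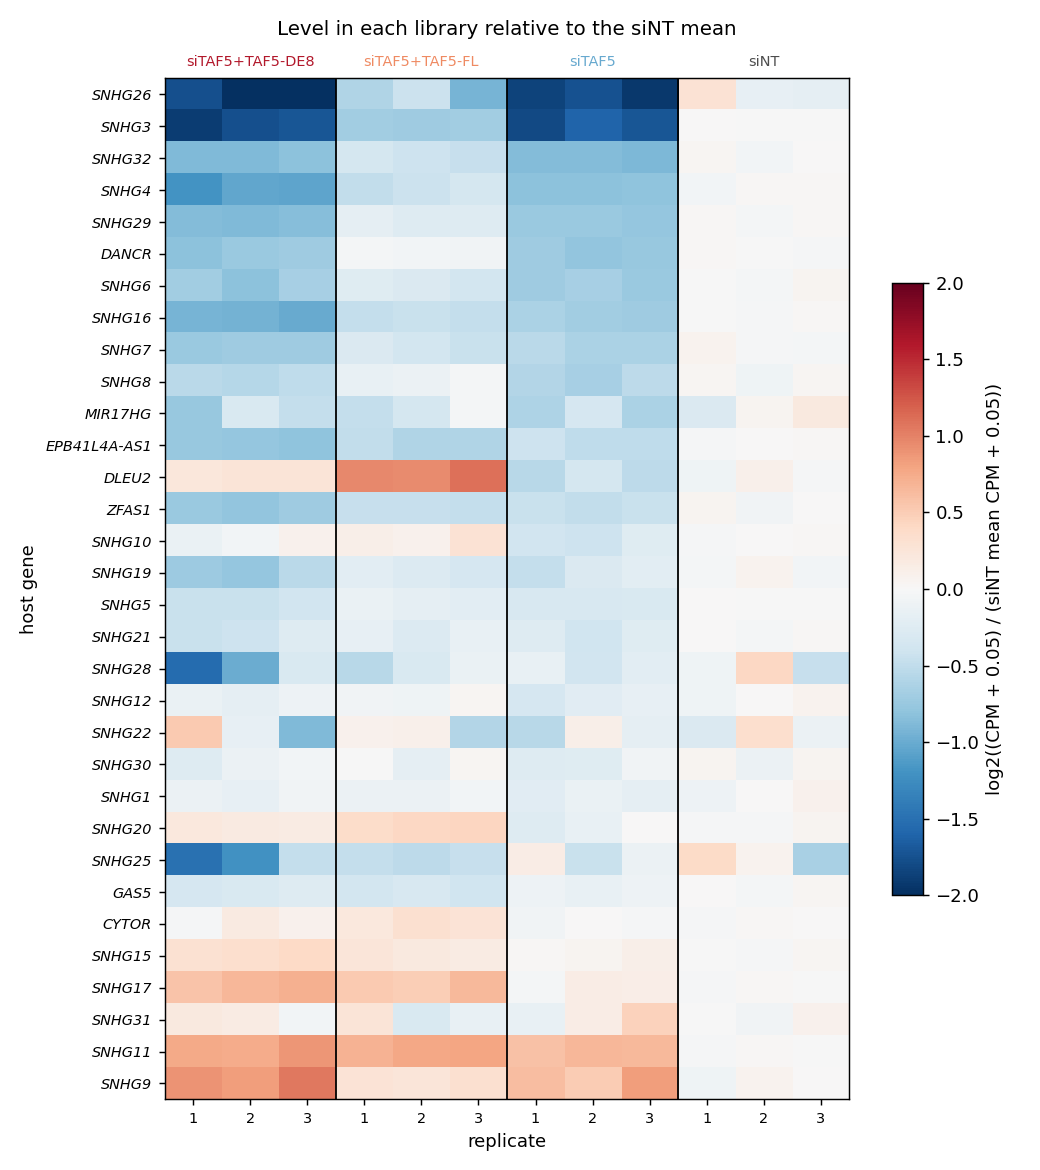
Level of each of the 32 host genes (rows, ordered by the log2 difference of siTAF5 over siNT) in each of the 12 libraries (columns), as log2 of (CPM + 0.05) over (siNT mean + 0.05), from blue (lower) to red (higher), with colours ending at -2 and 2. SNHG26 and SNHG3 at the top are lowest in all DE8 and siTAF5 libraries, and SNHG11 and SNHG9 at the bottom are higher than siNT in all libraries with TAF5 siRNA.

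Members that hold only box C/D RNAs and those that hold only box H/ACA RNAs were counted apart. All 10 box C/D hosts fell in siTAF5 against siNT (SNHG1, SNHG5, SNHG6, SNHG16, SNHG19, SNHG26, SNHG29, SNHG30, SNHG32 and ZFAS1; median log2 difference -0.57). Of 11 box H/ACA hosts, 6 fell and 2 rose (median -0.48), while 25% of all genes fell and 24.7% rose. In DE8 against FL, 8 of the 10 box C/D hosts were lower, and of the box H/ACA hosts 6 were lower and 2 higher, while 19.7% of all genes were lower and 17.3% higher. The 2 kinds were not tested against each other. SNHG30, host of SNORD7, is the box C/D host with the weakest call in siTAF5 against siNT: its libraries overlapped, at 13.0 to 14.7 CPM in siTAF5 and 14.4 to 16.2 CPM in siNT (adjusted p = 0.0264, edgeR), and 5 of 19 other settings lost it.

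With DE8 in place of full-length TAF5, most of the host genes were lower. In siTAF5+TAF5-DE8 against siTAF5+TAF5-FL, 18 of 32 members were lower and 2 higher (SNHG9 and SNHG15), with 12 not called. Over all genes tested, 19.7% were lower and 17.3% higher, 37% in all. The median log2 difference was -0.23 for the members and -0.01 for all genes. Libraries did not overlap for 21 members, against 45.7% of all genes. SNHG26 had 0.656, 0.499 and 0.475 CPM in DE8, against 1.54, 1.73 and 1.21 CPM in FL (log2 difference -1.44, SE 0.20, adjusted p = 1.38e-05), and with SNHG3 it was the only member at least 2-fold lower, among 93 genes in all.

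DANCR had 32, 33.7 and 34.4 CPM in DE8 libraries, against 54.9, 54.5 and 53.8 CPM in FL libraries (log2 difference -0.71, SE 0.03, adjusted p = 8.94e-12). All DE8 libraries lay well below all FL libraries. DLEU2 had 10.9, 11.1 and 11.2 CPM in DE8, against 18.15, 17.9 and 19.97 CPM in FL (log2 difference -0.76, SE 0.06, adjusted p = 1.07e-08). SNHG9 was higher in DE8, with 9.21, 8.82 and 10.3 CPM, against 5.90, 5.835 and 6.15 CPM in FL (log2 difference 0.66, SE 0.08, adjusted p = 4.18e-06).

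The comparisons of siTAF5 with siNT and of DE8 with FL share no library. Of the 22 members lower in siTAF5, 16 were lower in DE8, none was higher, and GAS5, MIR17HG, SNHG1, SNHG12, SNHG21 and SNHG30 were not called. Of 4848 genes of the whole table lower in siTAF5, 2887 (59.6%) were lower in DE8. SNHG9 was higher in both comparisons. CYTOR and SNHG20 were lower in DE8 against FL without a call in siTAF5 against siNT, and SNHG15 was higher. Across the 32 members the log2 differences of the comparisons had a Pearson r of 0.87, against 0.52 across 19424 genes. The value for members includes SNHG3, chosen by its fall in siTAF5 against siNT, and SNHG26, which with SNHG3 lies farthest out. Members and all genes were not matched on level, so the r values are a description only. Genes are not independent replicates and the values share the fit, so no p is given.

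**Figure D4:**
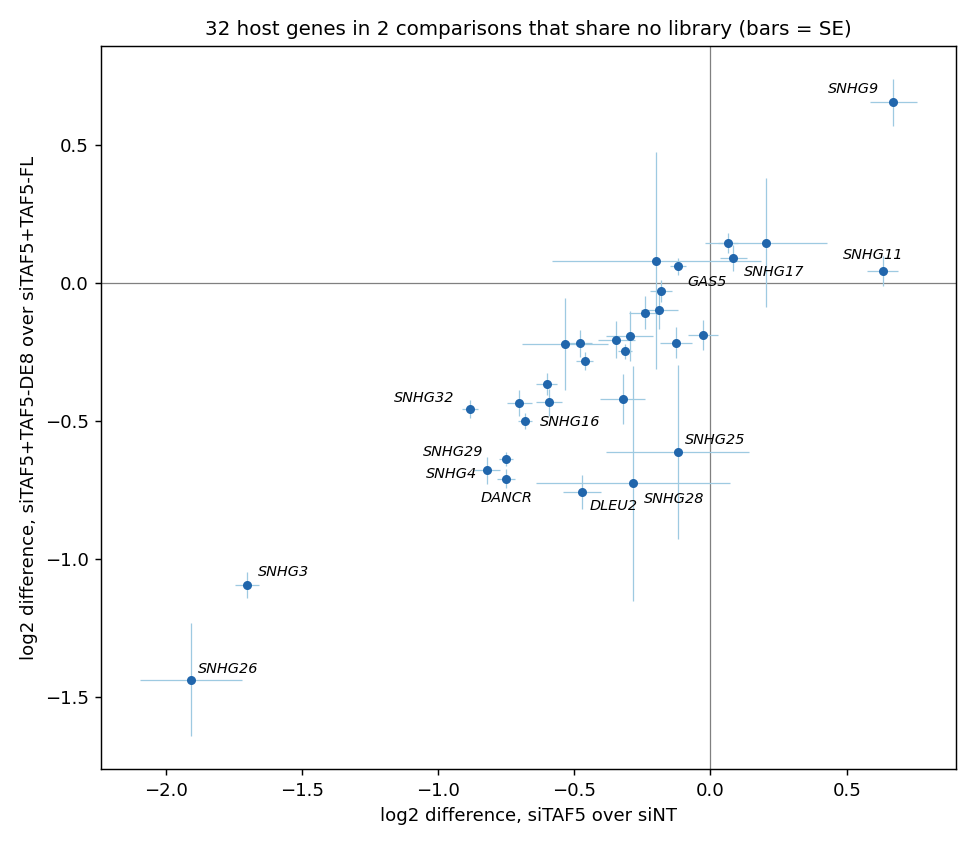
Log2 difference of DE8 over FL (y axis) against log2 difference of siTAF5 over siNT (x axis) for the 32 host genes, with SE bars from the fit. Most members lie in the lower left, with SNHG26 (-1.91 and -1.44) and SNHG3 (-1.70 and -1.09) farthest out and SNHG9 (0.67 and 0.66) farthest to the upper right.

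With full-length TAF5 many host genes were higher than in siTAF5. In siTAF5+TAF5-FL against siTAF5, 18 members rose and 2 fell (SNHG9 and GAS5). Over all genes, 24.4% rose and 24.4% fell, 48.8% in all, and the median log2 difference was 0.21 for members and -0.01 for all genes. Libraries did not overlap for 23 members, against 56.3% of all genes. The siTAF5 libraries also serve in the comparison with siNT, so the values are given side by side and not set against each other as evidence. As a percent of the siNT mean, SNHG29 stood at 85.2% in FL and 59.4% in siTAF5, SNHG32 at 75.2% and 54.2%, and SNHG4 at 74.7% and 56.6%. DANCR stood at 96.2% in FL and 59.5% in siTAF5, and its FL level was not called different from siNT (log2 difference -0.06, SE 0.03, adjusted p = 0.157, edgeR), although its FL and siNT libraries did not overlap.

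Other members were not called higher in FL than in siTAF5. ZFAS1, host of the SNORD12 family, had 71.0, 71.3 and 70.8 CPM in FL and 71.6, 69.8 and 72.0 CPM in siTAF5, and these overlapped (log2 difference 0.00, SE 0.03). EPB41L4A-AS1, host of SNORA13, averaged 17.1 ± 0.789 CPM in FL and 18.2 ± 0.744 CPM in siTAF5 (SD, n = 3 each; adjusted p = 0.156, edgeR). GAS5 was lower still with FL, with 108.5, 112 and 106 CPM, against 130.4, 126 and 129.6 CPM in siTAF5 (log2 difference -0.24, SE 0.03, adjusted p = 1.06e-06). In siTAF5+TAF5-FL against siNT, 13 members were lower, 8 higher and 11 not called, while 26.8% of all genes were lower and 27.8% higher, 54.6% in all. Libraries did not overlap for 23 members there, against 59.7% of all genes. TAF5 RNA, with transgene reads included, was 2.63-fold higher in FL than in siNT. The groups were therefore not compared at an equal level of TAF5.

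DLEU2 and SNHG17 were among the 8 members higher in FL than in siNT. DLEU2, host of the tumour-suppressing MIR15A and MIR16-1, had 18.15, 17.9 and 19.97 CPM in FL, against 6.32, 7.27 and 6.47 CPM in siTAF5 (log2 difference 1.48, SE 0.07, adjusted p = 1.09e-12), and 8.70, 10 and 9.14 CPM in siNT (2.01-fold higher in FL). SNHG17, host of 4 SNORA71 genes, had 45.1, 44.5 and 49.3 CPM in FL, against 30.7, 34.7 and 34.5 CPM in siTAF5 (log2 difference 0.47, SE 0.05, adjusted p = 1.19e-07). Its siNT libraries were at 31.15, 31.8 and 31.5 CPM. SNHG20 and CYTOR rose in FL against siTAF5 by 1.44- and 1.23-fold, and were 1.32- and 1.20-fold higher in FL than in siNT.

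With DE8 the members moved either way from their siTAF5 levels, with a median near that of all genes. In siTAF5+TAF5-DE8 against siTAF5, 7 members rose, 10 fell and 15 were not called, while 20% of all genes rose and 20.6% fell, 40.6% in all. The median log2 difference was -0.02 for members and -0.01 for all genes, and libraries did not overlap for 16 members, against 49.9% of all genes. Among the members not called, the log2 difference was 0.02 (SE 0.03) for SNHG32, -0.01 (SE 0.04) for DANCR, -0.03 (SE 0.05) for SNHG6, 0.055 (SE 0.05) for SNHG8 and -0.18 (SE 0.23) for SNHG26, which bounds any change in the first 4 more tightly than in SNHG26. The genes that rose most were DLEU2 (1.65-fold) and SNHG17 (1.48-fold), followed by SNHG20 (1.24-fold) and SNHG10 (1.24-fold), the host of SCARNA13. SNHG17 rose with both forms of TAF5, and its DE8 and FL libraries overlapped.

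Among members that fell below the siTAF5 level were SNHG16, ZFAS1, SNHG4 and EPB41L4A-AS1. SNHG16, host of the SNORD1 family, had 89.2, 88.2 and 84.8 CPM in DE8, against 109.5, 106 and 104 CPM in siTAF5 (log2 difference -0.28, SE 0.03, adjusted p = 1.92e-07). ZFAS1 had 58.6, 57.0 and 59.8 CPM in DE8, against 71.6, 69.8 and 72.0 CPM in siTAF5 (log2 difference -0.28, SE 0.03, adjusted p = 1.16e-06). SNHG25 had the largest log2 difference among the members that fell (-0.99, SE 0.30, adjusted p = 0.0118, edgeR), on a median of 38.5 counts per library, and leaving out DE8 library 1, DE8 library 2 or siTAF5 library 1 each ended that call. Against siNT, 21 members were lower in DE8 and 6 higher, while 31.4% of all genes were lower and 30.8% higher, 62.2% in all. Libraries did not overlap for 24 members, against 65.7% of all genes, and the median log2 difference was -0.47 for members and 0.00 for all genes.

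Summed over the 32 members, the level was 1122, 1127 and 1162 CPM in DE8 libraries, 1479, 1452 and 1446 CPM in FL libraries, 1187, 1182 and 1187 CPM in siTAF5 libraries and 1732, 1686 and 1738 CPM in siNT libraries. The 4 groups did not overlap in this sum, which SNHG29 and the other highly counted members dominate.

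Genes elsewhere in the table with a pattern like that of SNHG3 were named by the Pearson r of log2 CPM over the 12 libraries, as a description. The 5 highest were EEF1D (0.995), RFX5 (0.993), THOC6 (0.992), SNHG32 (0.991) and KAT8 (0.990). EEF1D, a translation elongation factor subunit with a TOP mRNA, averaged 135 CPM in DE8, 188.5 in FL, 142 in siTAF5 and 243 in siNT. Among members, SNHG32, SNHG29 (0.986), SNHG6 (0.984), SNHG4 (0.973) and SNHG5 (0.967) were most like SNHG3, and SNHG9 (-0.94) was least like it. The 12 libraries fall into 4 groups, so these values reflect mainly the 4 group means.

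Protein-coding genes of the same pathway were counted from lists, beside median log2 differences over all genes of 0.00 in siTAF5 against siNT and -0.01 in DE8 against FL. Over all genes, 25% fell and 24.7% rose in siTAF5 against siNT, and 19.7% were lower and 17.3% higher in DE8 against FL. Of 23 ribosomal protein genes that host small nucleolar RNAs, 20 fell and 1 rose in siTAF5 against siNT (median log2 difference -0.31), and 20 were lower and 2 higher in DE8 against FL (median -0.27). RPSA averaged 810.0 CPM in DE8, 1122 in FL, 786 in siTAF5 and 1219 in siNT, and RPL10 averaged 845, 1153, 870.5 and 1260.0 CPM in that order of groups. Of 16 TOP mRNAs other than ribosomal proteins, 15 fell and 1 rose in siTAF5 against siNT (median -0.25), with NAP1L1 1.55-fold and TPT1 1.31-fold lower. In DE8 against FL, 12 of these were lower and 1 higher (median -0.22). The 28 other protein-coding hosts were split, with 11 lower and 10 higher in siTAF5 against siNT (median -0.01). Those that fell included TAF1D, which encodes a subunit of the RNA polymerase I factor SL1 (1.69-fold), and RABGGTB, a subunit of the enzyme that attaches lipid groups to Rab proteins (1.63-fold). Those that rose included CCAR1, a regulator of the cell cycle and apoptosis (1.38-fold), and HSPA8, a chaperone (1.20-fold). The lists overlap: among these 28 hosts EEF2, EEF1B2, TPT1 and RACK1, which all fell in siTAF5 against siNT, are also on the TOP list. NOP56, NOP58 and DKC1 are also among the core proteins counted below.

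The proteins that bind small nucleolar RNAs moved in both directions after TAF5 knockdown. Of the 8 core proteins of their particles, 3 fell and 2 rose in siTAF5 against siNT (median log2 difference -0.01), beside 25% and 24.7% of all genes. NHP2, of box H/ACA particles, fell by 1.21-fold and FBL, the box C/D methyltransferase, by 1.15-fold, and NOP56 rose by 1.07-fold. In DE8 against FL, 3 were lower and none higher, beside 19.7% and 17.3% of all genes. Among 16 assembly factors, 7 rose and 4 fell in siTAF5 against siNT, with COIL, the marker protein of Cajal bodies, among those that fell (1.37-fold, adjusted p = 2.2e-09, edgeR). In DE8 against FL, 3 of these were higher and 5 lower, beside 17.3% and 19.7% of all genes. In FL against siTAF5, 6 core proteins rose and none fell (median 0.18), and 11 assembly factors rose and 1 fell (median 0.19). Of all genes, 24.4% rose and 24.4% fell in that comparison. In DE8 against siTAF5, 5 core proteins rose and 1 fell (median 0.11), and 12 assembly factors rose and none fell (median 0.145). There 20% of all genes rose and 20.6% fell. So more of these genes were higher with either form of TAF5, and both comparisons use the same siTAF5 libraries.

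Factors of nonsense-mediated decay and known targets of the pathway were counted because its activity affects spliced host RNAs. Of 15 factors, 5 rose and 5 fell in siTAF5 against siNT (median log2 difference 0.02), and 2 were higher and 3 lower in DE8 against FL (median -0.03), beside 24.7% and 25% of all genes in siTAF5 against siNT and 17.3% and 19.7% in DE8 against FL. RBM8A, of the exon junction complex, rose in siTAF5 against siNT (log2 difference 0.32, adjusted p = 6.3e-10, edgeR). Of 11 target mRNAs, 3 rose and 5 fell in siTAF5 against siNT (median -0.10), and 2 were higher and 3 lower in DE8 against FL. ATF4, a stress-response transcription factor, fell by 1.48-fold in siTAF5 against siNT and was 1.35-fold lower in DE8 than in FL. With either form of TAF5 more of these genes were higher. In DE8 against siTAF5, 13 factors and 8 targets rose and none fell, while 20% of all genes rose and 20.6% fell. In FL against siTAF5, 12 factors and 7 targets rose and none fell, while 24.4% of all genes rose and 24.4% fell. UPF3B, SMG5 and SMG1 are on both lists, and both comparisons use the same siTAF5 libraries. Decay itself was not measured, and its part in the levels of the host genes was not tested.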

How the data were processed

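Polyadenylated RNA of 12 libraries was analysed. The authors deposited estimated counts (expected counts) per gene without normalization, a unit read from the values, of which 34.3% lay off a whole number by more than 0.02. Per the submitters' processing notes, cutadapt 1.18, STAR 2.7.0f, Partek 10.0.23.0531, DESeq2 and the build hg38 were used. The labels' protocols name a stranded kit. The counting program, its annotation and its strand setting were not given in those notes or labels. Estimates were non-whole in some library in 23 of the 32 members and whole in 9, and which genes or copies the divided reads were shared with was not tested.

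The design was written for counts, so the estimates were rounded, which moved no library total by more than 91.3. In R 4.3.3 with edgeR 4.0.16, filterByExpr (minimum count 10) kept 19424 genes, all 32 members among them. TMM factors ran from 0.98 to 1.02. One quasi-likelihood fit of all 12 libraries, 1 mean per group, tested 6 comparisons two-sided with Benjamini-Hochberg adjustment over all genes and a threshold of 0.05. The SE is the log2 difference divided by the square root of F. The fit was also run on simulated counts with the same spread for every gene and few changed genes, unlike these data. That run checks only that the code works. No spike-in was used, so values are relative to the bulk of genes, whose median log2 difference lay between -0.011 and 0.006 in the 6 comparisons. Spread between replicates was small (common biological coefficient of variation 2.82%) but above sampling noise in every replicate pair (chi-square of 2.6 to 5.14 per degree of freedom).

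The members, gene lists and named genes were chosen with earlier results of these data known. Named were SNHG3, the members with the largest changes each way, up to 4 genes per list by adjusted p, tested genes within 150 kb of SNHG3 and the genes most like it (log2 CPM, prior count 2). Alternatives were other scalings, no filter, DESeq2 1.42.0, a replicate block, the 6 compared libraries alone and leaving out each library. Sequences came from RefSeq tables (GRCh38.p14).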

Additional observations from a re-analysis of the deposited data

How the results depend on the processing

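Counts of host genes called kept within 1.5 times their main value under all 19 alternatives. In siTAF5 against siNT, 20 to 23 members fell and 2 to 3 rose, and in DE8 against FL, 16 to 19 were lower and 2 to 3 higher. In FL against siTAF5, 17 to 19 rose and 2 to 3 fell. The log2 difference of SNHG3 in DE8 against FL ran from -1.12 to -1.03 and stayed past the threshold. Over the 192 results of single members and comparisons, none reversed, 16 lost their call under at least 1 alternative and 17 gained one. MIR17HG lost its call in siTAF5 against siNT without siNT library 3, and SNHG10 its higher call in FL against siNT under 12 alternatives. Same-numbered libraries did not deviate together to a visible degree (correlations of -0.051 to 0.051 over 18 pairs). This cannot exclude that libraries of the same number were prepared together, which the labels do not say. With a replicate block, 22 members fell in siTAF5 against siNT, 18 were lower in DE8 against FL, and the lower calls in FL against siNT went to 15, against 13 without it. Members that averaged under 1 CPM in all 4 groups (SNHG22, SNHG25, SNHG28 and SNHG31) are limited by depth. SNHG26 averaged 0.622 CPM in siTAF5 and 0.543 CPM in DE8, so its falls also rest on few reads.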

Other observations

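The table has 47 rows for small nucleolar and small Cajal body RNAs, with a median of 8 counts summed over the 12 libraries. Of these, 4 passed the filter on low counts, and the library type selects polyadenylated RNA, so mature small nucleolar RNAs are hardly sampled. SNORD17 averaged 0.315 CPM in DE8, 0.674 in FL, 0.229 in siTAF5 and 0.678 in siNT, and fell in siTAF5 against siNT (adjusted p = 6.92e-05, edgeR) and in DE8 against FL (adjusted p = 0.00226, edgeR). SNORD3A, a copy of the U3 RNA of pre-rRNA processing, averaged 1.88 CPM in DE8, 1.12 in FL, 1.34 in siTAF5 and 0.967 in siNT, and was higher in DE8 than in FL (adjusted p = 0.0141, edgeR). SNORD3A has near-identical copies between which reads may have been split, so its values are uncertain. What form of RNA these reads come from was not tested.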
